A study of Mus musculus with 4 samples.

Results

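The antioxidant, glutathione and NADPH supply genes are 34 genes in 8 functional groups: the NRF2 system, glutathione synthesis and recycling, the thioredoxin system, the pentose phosphate pathway, the peroxiredoxins, the glutathione peroxidases with superoxide dismutases and catalase, the glutathione transferases with glutaredoxin, and the ferritin chains of iron storage. They were taken from the count table by gene name, from a list drawn up with earlier results of these data known. All 34 of 34 names were found among the 22554 genes of the count table, and all 34 passed the filter on low counts that left 17650 genes for testing. The experiment was bulk RNA-seq of sorted ILC2s, group 2 innate lymphoid cells, from the lungs of BALB/c mice aged 6 weeks. The freshly isolated cells of both groups were cultured with IL-2, IL-7 and IL-33, and the groups differed in whether vehicle or compound 5D, an inhibitor of the Orai calcium channels, was added. There were 2 vehicle and 2 5D libraries, and no dose of 5D was stated for this culture. Neither the labels nor the methods state that the 2 libraries of a group came from separate mice or cultures, so every p-value here measures the spread between these libraries, which may be technical.

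NRF2, encoded by Nfe2l2, is a transcription factor that is held in the cytoplasm and marked for degradation by KEAP1 until oxidants or electrophiles modify cysteines of KEAP1. It then enters the nucleus, pairs with small MAF proteins and binds antioxidant response elements near genes for glutathione synthesis, the thioredoxin system, the oxidative pentose phosphate pathway, heme breakdown and ferritin. Glutathione and thioredoxin pass electrons to the enzymes that remove peroxides, both are kept reduced with NADPH, and ferritin stores iron in a form that does not react with hydrogen peroxide. The study also asked about reactive oxygen species in cells whose Orai channels were blocked, and these genes give the RNA levels of the systems that remove such species.

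Total estimated counts reached 23239853 and 20096555 for vehicle, 26912708 and 28697265 for 5D, so both 5D libraries were the deeper ones. All 10 ILC2 markers were present. Their summed level was 7443 and 7370 CPM with vehicle and 6887 and 7237 CPM with 5D, lower in both 5D libraries. Il2ra, the highest of them, was at 2221 and 2068 CPM with vehicle and 1771 and 1874 CPM with 5D. Thy1 and Klrg1 were also lower in both 5D libraries, Ptprc, Il1rl1 and Rora were higher in both, and the others overlapped. The sum therefore does not show a common direction of the markers. CPM are counts relative to the library total, scaled here by the upper quartile of each library. The lists for other cells were low. Summed levels of T cell genes were 26.0 and 26.1 CPM with vehicle and 27.3 and 27.6 CPM with 5D, most of it Cd3g, and those of endothelial and fibroblast genes 21.3 to 23.9 CPM with vehicle and 15.7 to 19.9 CPM with 5D, most of it Pecam1. Epithelial genes, mainly Epcam, summed to 25.5 to 27.8 CPM. B cell, neutrophil and NK cell lists stayed at or below 0.56 CPM, erythroid genes at 3.92 to 4.87 CPM and mast cell and basophil genes at 2.25 to 5.55 CPM. The macrophage and dendritic cell list reached 7.20 to 8.74 CPM in 3 libraries and 0.295 CPM in 5D replicate 1, a difference in Chil3. No eosinophil marker was among the genes analysed here. The part of depth and of these cell types in the differences below was not tested. In bulk RNA, a lower share of cells that express a gene and less of its RNA in each cell cannot be told apart.

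Of the 34 genes, none differed between 5D and vehicle at an adjusted p under 0.05 by edgeR's quasi-likelihood test, against a background of 0.0963% of all tested genes (17 of 17650). The smallest adjusted p among them was 0.440. DESeq2 and limma-voom also called 0 of the 34. At an unadjusted p under 0.05, 3 genes were higher with 5D (Hmox1, Ftl1 and Txnrd1, 8.82% of the 34, where 3.5% of all tested genes were) and 0 were lower (3.84% of all tested genes were). Both 5D libraries lay above both vehicle libraries in 7 genes (20.6%, background 18.7%) and below them in 4 genes (11.8%, background 18.8%), and the groups overlapped in the other 23. Apart from the 3 genes named, these shares were near or below those of all genes.

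The differences were small, and most were bounded closely. The log2 fold changes of 5D against vehicle ran from -0.46 (Slc7a11) to 0.24 (Hmox1), with 21 above and 13 below 0, and their median was 0.019 beside a median of -0.0016 over all tested genes. The 95% interval of the fold change lay within 1.2-fold in either direction for 27 of the 34 genes (79.4%), within 1.5-fold for 32, and within 2-fold for all 34. Over all tested genes the interval lay within 1.2-fold for 21.04%, and over genes at or above the level of the lowest of the 34 for 33.9%. That lowest gene, Mgst2 at 2.35 CPM, lay far below most of the others, so neither background was matched on level. The part of level in the width of the intervals was not tested. The genes with the widest intervals were Slc7a11 and Mgst2, the 2 with the fewest counts. The plot of the difference for each gene shows the intervals by functional group.

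**Figure D1:**
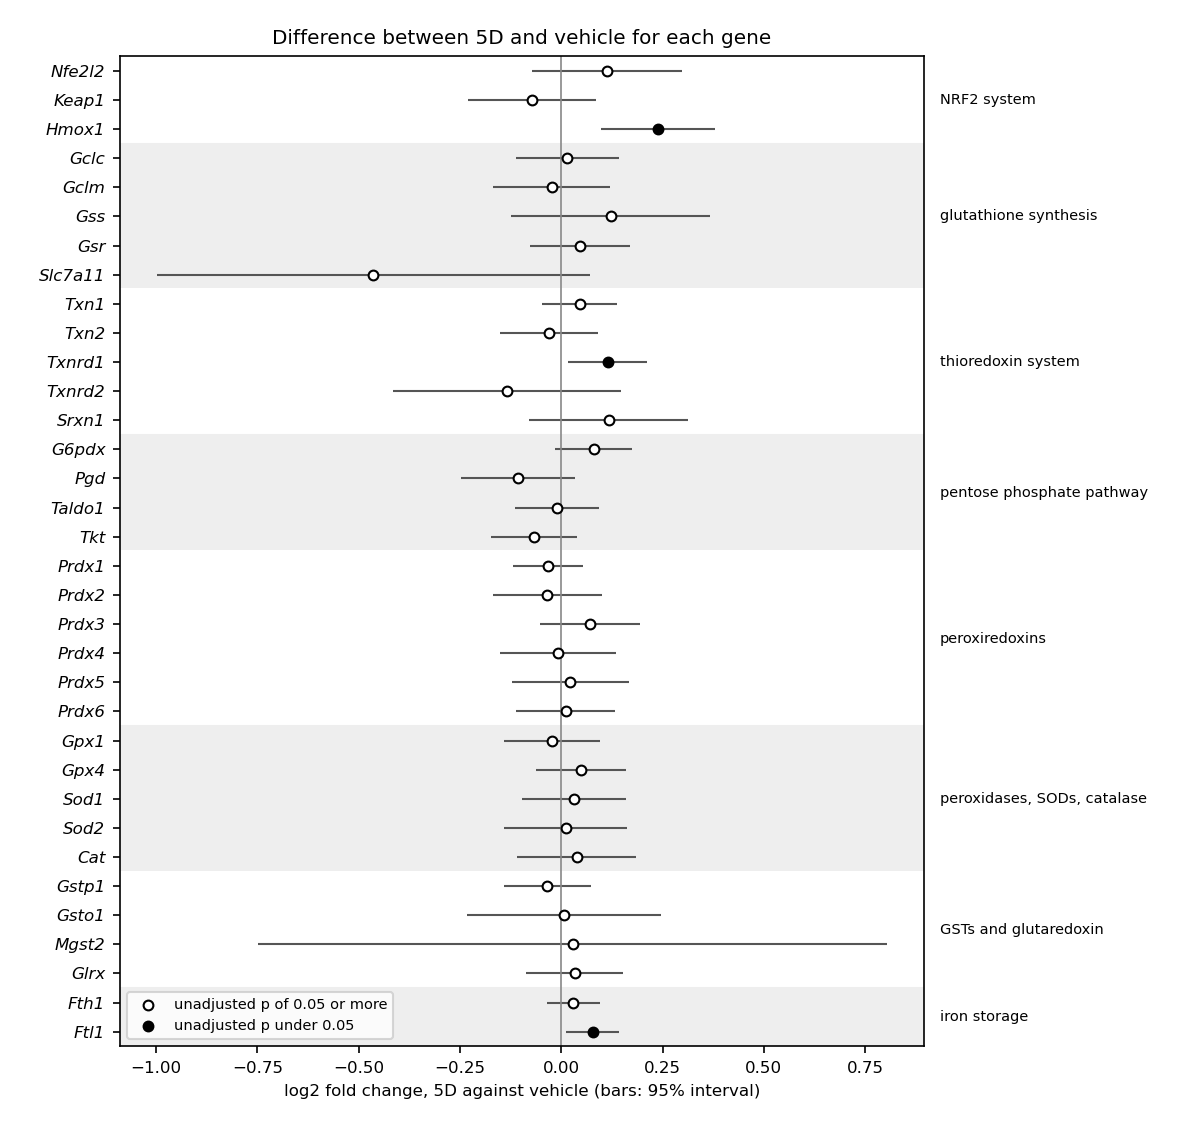
Log2 fold change of 5D against vehicle (x axis) for the 34 genes (y axis, by functional group), with 95% intervals from edgeR's quasi-likelihood fit on 2 libraries per group. Filled points mark the 3 genes with an unadjusted p under 0.05 (Hmox1, Txnrd1 and Ftl1), no gene passed at the adjusted threshold, and Slc7a11 and Mgst2 have the widest intervals.

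In the NRF2 system, the transcription factor gene and its target Hmox1 had higher values with 5D in both libraries, and the repressor gene Keap1 did not separate the groups. Hmox1 (chr8:75093621-75100589, plus strand, mm10) encodes heme oxygenase 1, which splits heme into biliverdin, carbon monoxide and iron. Its normalized level was 105 and 106 CPM with vehicle, and 120 and 129 CPM with 5D. The vehicle libraries were nearly equal and both 5D libraries stood above them. The log2 fold change was 0.24 (SE 0.064, 95% interval 0.097 to 0.38), or 17.97% higher, with an unadjusted p of 0.0033 and an adjusted p of 0.440 by edgeR (0.187 to 0.473 over the alternatives with all libraries). No other gene of the 34 had a smaller p, and without any 1 of the 4 libraries the log2 fold change stayed between 0.19 and 0.28. No other gene with a near-identical stretch or an overlapping exon was found for Hmox1.

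Nfe2l2 (chr2:75675513-75704641, minus strand) was at 49.4 and 49.2 CPM with vehicle and at 53.9 and 52.7 CPM with 5D. The groups did not overlap, and the gap between them was larger than the differences inside each group. Its log2 fold change of 0.11 (SE 0.084, 95% interval -0.072 to 0.30) did not pass the test (adjusted p = 0.841, edgeR). Keap1 (chr9:21229730-21239361, minus strand), the adaptor that presents NRF2 for ubiquitination, was at 103 and 115 CPM with vehicle and 106 and 100 CPM with 5D. These values overlapped, with vehicle replicate 2 the highest, and the log2 fold change was -0.073 (SE 0.072, 95% interval -0.23 to 0.086; adjusted p = 0.892, edgeR). Of the Keap1 exons, 10.9% overlap Gm16754 on the opposite strand, whose reads cannot be told apart where counting does not use strand, and strand was not stated here. Within each library the ratio of Nfe2l2 to Keap1 per kb of exon was 0.59 and 0.53 with vehicle and 0.63 and 0.65 with 5D.

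An antioxidant response element has a short fixed core, and its letters were looked for in the promoters of these genes, because many of them are textbook NRF2 targets. RefSeq promoters (GRCm38.p6, the assembly of mm10) from 250 bases before to 50 after the start site were matched for 30 of the 34 genes, the others being Prdx6, Gsr, Hmox1 and Gclc. The core TGACNNNGC was present on either strand in 8 of the 30 (26.7%) and in 16.9% of the tested genes with a promoter. A gene was counted if any of its promoter entries held the core. Counted by single entry, which is not a like count, it was present in 12.4% of all promoters in the set. The longer form, the core followed by A, was present in 2 of the 30, Pgd and Txnrd1 (6.67%), and in 3.41% of the tested genes with a promoter. Pgd had 2 promoter entries and Txnrd1 had 3. Both matches belong to a start site inside the annotated gene and not to its outer end. The 8 matches are printed 5′ to 3′ on the strand that carries the core, with the core in capitals and 10 bases on each side. A match is a run of letters and not a measured binding site, and a promoter with no match says nothing about NRF2.
Nfe2l2 (chr2:75704885-75704913, minus strand): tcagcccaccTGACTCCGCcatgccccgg
Gclm (chr3:122245413-122245441, minus strand): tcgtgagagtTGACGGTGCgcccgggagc
Txnrd1 (chr10:82859104-82859132, minus strand): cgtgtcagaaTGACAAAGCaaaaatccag
Srxn1 (chr2:152105542-152105570, minus strand): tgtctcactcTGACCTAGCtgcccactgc
G6pdx (chrX:74428919-74428947, plus strand): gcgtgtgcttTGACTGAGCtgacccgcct
Pgd (chr4:149166061-149166089, minus strand): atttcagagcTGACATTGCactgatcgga
Prdx1 (chr4:116685456-116685484, minus strand): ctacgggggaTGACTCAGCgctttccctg
Sod1 (chr16:90220696-90220724, minus strand): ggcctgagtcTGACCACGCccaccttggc

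The 8 genes with a printed core did not share a direction. Txnrd1, Srxn1, Nfe2l2, G6pdx and Sod1 had log2 fold changes of 0.11, 0.12, 0.11, 0.080 and 0.031, while Gclm, Prdx1 and Pgd had -0.023, -0.033 and -0.11. Of these only Txnrd1 had an unadjusted p under 0.05, and none passed at the adjusted threshold.

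In glutathione synthesis and recycling, the enzymes of synthesis and recycling overlapped between the groups and the cystine transporter had lower values with 5D without passing the test. Gclc (chr9:77754535-77794485, plus strand) encodes the catalytic subunit of glutamate-cysteine ligase, the first and limiting step, and was at 308 and 291 CPM with vehicle and 318 and 288 CPM with 5D. The libraries of the groups interleaved, the log2 fold change was 0.015 (SE 0.058, 95% interval -0.11 to 0.14; adjusted p = 0.984, edgeR), and Gclc had the highest level per kb of exon in the group, 79.9 CPM per kb. Gclm, the modifier subunit of the same enzyme, ranged from 117 to 127 CPM (log2 fold change -0.023). Reads of Gclm are uncertain, since its annotated exons hold a stretch of 287 bases that is 97.9% identical to Ppia, a gene with 90833 to 124657 counts. Gss, glutathione synthetase, ranged from 30.3 to 36.7 CPM (log2 fold change 0.12, 95% interval -0.12 to 0.37), with 5D replicate 1 apart from the other libraries, and 6.7% of its exons overlap Acss2 on the opposite strand. Gsr, which reduces oxidized glutathione with NADPH, ranged from 199 to 216 CPM (0.047). For both Gss and Gsr the lowest library was a vehicle library and the groups overlapped.

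Slc7a11 (chr3:49892526-50443614, minus strand) encodes the light chain xCT of the cystine/glutamate exchanger that brings in cystine for glutathione. It had 125 and 93 counts with vehicle and 95 and 108 with 5D, which is 5.38 and 4.65 CPM against 3.50 and 3.78 CPM. Once scaled to depth, the 5D values were the lower ones in both libraries. The log2 fold change of -0.46 was the largest in size of the 34 and also one of the least certain (SE 0.24, 95% interval -0.999 to 0.072; unadjusted p = 0.083, adjusted p = 0.741, edgeR). At 0.311 CPM per kb it had the lowest level per length of all 34. Its long annotated exons hold a stretch of 373 bases that is 96.2% identical to Tuba1b, an alpha-tubulin gene with 56530 to 78591 counts, so an unknown number of these few reads could belong to tubulin. Slc3a2 encodes the heavy chain that xCT shares with several amino acid transporters. It was at 756 and 789 CPM with vehicle and at 697 and 680 CPM with 5D, again lower in both 5D libraries (log2 fold change -0.17, SE 0.041, 95% interval -0.26 to -0.077). Its adjusted p was 0.361 by edgeR, 0.0255 by DESeq2 and up to 0.399 over the alternatives, and Slc3a2 was called by DESeq2 alone of the settings that used all 4 libraries. Without vehicle replicate 1 its adjusted p was 0.0427 by edgeR.

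In the thioredoxin system, the cytosolic reductase had higher values with 5D while the mitochondrial pair did not. Txnrd1 (chr10:82833951-82897712, plus strand), the cytosolic selenoprotein that reduces thioredoxin with NADPH, was at 627 and 583 CPM with vehicle and at 658 and 651 CPM with 5D. Both 5D libraries exceeded both vehicle libraries, and vehicle replicate 2 was the lowest. The log2 fold change was 0.11 (SE 0.045, 95% interval 0.016 to 0.21), or 8.23%, with an unadjusted p of 0.027 and an adjusted p of 0.612 by edgeR. Without vehicle replicate 2 the log2 fold change was 0.061. Txn1 (chr4:57943373-57956411, minus strand), cytosolic thioredoxin, was at 635 and 657 CPM with vehicle and 654 and 679 CPM with 5D. These values overlapped (log2 fold change 0.045, SE 0.042, 95% interval -0.046 to 0.14; adjusted p = 0.883, edgeR), and Txn1 had the highest level per length of its group, 624 CPM per kb.

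Txn2, the mitochondrial thioredoxin, ranged from 170 to 179 CPM (log2 fold change -0.029), and Txnrd2, its reductase, from 28.3 to 37.5 CPM (-0.13, 95% interval -0.41 to 0.15). Txnrd2 differed more between replicates than between groups, with the higher value in replicate 2 of each group. Srxn1, sulfiredoxin, which repairs overoxidized peroxiredoxins, ranged from 72.2 to 89.2 CPM (0.12, 95% interval -0.078 to 0.31), also with the higher value in replicate 2 of each group. Per kb of merged exon, Txn1 exceeded Txn2 by 14.7 to 15.99 times in the 4 libraries, and by 3.58 to 3.89 times per kb of mean transcript length. Txnrd1 exceeded Txnrd2 by 9.66 to 14.4 times and by 8.32 to 12.4 times on these scales. The cytosolic genes were the more abundant ones in every library with either length, by a factor that depends on the length.

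In the pentose phosphate pathway, the first enzyme had higher values with 5D and the next dehydrogenase and transketolase lower ones, none past the test. G6pdx (chrX:74409483-74429194, minus strand) encodes glucose-6-phosphate dehydrogenase, the entry step that makes NADPH. It was at 440 and 451 CPM with vehicle and 478 and 463 CPM with 5D. Both 5D libraries were higher, and the group difference was larger than the replicate difference of either group (log2 fold change 0.080, SE 0.043, 95% interval -0.015 to 0.18; unadjusted p = 0.091, adjusted p = 0.752, edgeR). Of the G6pdx exons, 13.6% overlap Ikbkg on the opposite strand. G6pdx was also the highest of its group per length, at 149 CPM per kb.

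Pgd (chr4:149149991-149166771, minus strand), 6-phosphogluconate dehydrogenase, which makes the next NADPH, was at 163 and 167 CPM with vehicle and at 161 and 145 CPM with 5D. The 5D values were lower, but 5D replicate 1 lay closer to the vehicle libraries than to 5D replicate 2 (log2 fold change -0.11, SE 0.064, 95% interval -0.25 to 0.033; adjusted p = 0.777, edgeR). The log2 fold change of Pgd was -0.19 without 5D replicate 1 and -0.035 without 5D replicate 2. Tkt (chr14:30548359-30574720, plus strand), transketolase of the non-oxidative arm, was at 353 and 377 CPM with vehicle and 350 and 347 CPM with 5D. Both 5D values were lower, with vehicle replicate 2 apart from the other 3 libraries (log2 fold change -0.067, SE 0.048, 95% interval -0.17 to 0.039; adjusted p = 0.832, edgeR). Taldo1, transaldolase, ranged from 316 to 328 CPM and overlapped (-0.011). The summed level of these 4 genes was 1275 and 1323 CPM with vehicle and 1305 and 1281 CPM with 5D, a difference of -0.42%.

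Peroxiredoxins are thiol peroxidases, most of which are recharged by thioredoxin. Prdx1 (chr4:116685544-116700822, plus strand), the main cytosolic form, was at 1048 and 1049 CPM with vehicle and at 995 and 1054 CPM with 5D. The vehicle libraries lay between the 5D libraries (log2 fold change -0.033, SE 0.039, 95% interval -0.12 to 0.053; adjusted p = 0.915, edgeR). Prdx1 was the most abundant of the group at 341 CPM per kb, and 2 other genes, Gm21399 and Gm7204, hold stretches of 597 bases that are 98.3% and 97.5% identical to it. Prdx3, the mitochondrial form, was at 165 and 157 CPM with vehicle and 169 and 170 CPM with 5D, higher in both 5D libraries without passing the test (0.070, 95% interval -0.053 to 0.19; adjusted p = 0.855, edgeR). Prdx2, another cytosolic form, ranged from 124 to 132 CPM (-0.034), with exons that overlap Junb and Rnaseh2a on the opposite strand, and Prdx4, the form of the endoplasmic reticulum, from 112 to 121 CPM (-0.0087). Prdx5, found in several compartments, ranged from 96.6 to 102 CPM (0.022), with 19.1% of its exons overlapping Trmt112 on the opposite strand. Prdx6, the form reduced by glutathione, ranged from 225 to 243 CPM (0.011). In all of these but Prdx3 the groups overlapped.

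Among the glutathione peroxidases, superoxide dismutases and catalase, the groups overlapped in all 5 genes and the log2 fold changes ran from -0.023 to 0.049. Gpx1 (chr9:108338903-108340343, plus strand), the general glutathione peroxidase, was at 286 and 310 CPM with vehicle and at 300 and 287 CPM with 5D. The 5D libraries lay between the vehicle libraries (log2 fold change -0.023, SE 0.054, 95% interval -0.14 to 0.096; adjusted p = 0.969, edgeR), and Gpx1 led the group at 205 CPM per kb. Gpx4, which reduces lipid peroxides in membranes and so limits ferroptosis, ranged from 284 to 305 CPM (0.049, 95% interval -0.062 to 0.16), with vehicle replicate 1 the lowest library. Its reads may be shared with Gpx4-ps2, a pseudogene with 453 to 616 counts that is 99.7% identical over 762 bases. Sod1, the cytosolic superoxide dismutase, ranged from 145 to 153 CPM (0.031), Sod2, the mitochondrial one, from 97.3 to 106 CPM (0.011), and catalase, Cat, from 112 to 123 CPM (0.038). In each of these 3 genes vehicle replicate 1 was the lowest library. The annotated exons of Sod2 hold a stretch of 3110 bases that is 98.3% identical to Rps6ka2, which had at most 26.6 counts.

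Gstp1 (chr19:4035407-4037985, minus strand) encodes the pi-class glutathione transferase and was at 237 and 239 CPM with vehicle and at 234 and 231 CPM with 5D. Both 5D libraries were lower, by a difference that was small yet larger than those between replicates (log2 fold change -0.034, SE 0.049, 95% interval -0.14 to 0.073; adjusted p = 0.933, edgeR). Gstp1 led its group at 152 CPM per kb, and its reads may be shared with Gstp2, 98.2% identical over 707 bases but with at most 28.6 counts. Gsto1, the omega-class enzyme, ranged from 29.3 to 32.5 CPM (0.0071), and Glrx, glutaredoxin, which removes glutathione from protein thiols, from 259 to 280 CPM (0.033). Mgst2, a microsomal transferase, was at 1.72 and 2.95 CPM with vehicle and 2.43 and 2.31 CPM with 5D. With 40 to 66 counts per library, its log2 fold change of 0.028 had an interval of -0.75 to 0.80, and differences inside it were not detectable at this depth.

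The ferritin chains were the most abundant of the 34 genes. Ftl1 (chr7:45457944-45459884, minus strand), the light chain, which aids mineral formation in the ferritin shell, was at 6098 and 6439 CPM with vehicle and at 6692 and 6535 CPM with 5D. Both 5D libraries were higher, although 5D replicate 2 exceeded vehicle replicate 2 by little. The log2 fold change was 0.077 (SE 0.030, 95% interval 0.011 to 0.14), or 5.504%, with an unadjusted p of 0.025 and an adjusted p of 0.603 by edgeR, and it was 0.035 without vehicle replicate 1. Ftl1 has 7 near-identical genes, of which Ftl1-ps1 had 2852 to 4201 counts beside the 128850 to 186847 of Ftl1, and 26.5% of its exons overlap Gm10252 on the opposite strand. Fth1, the heavy chain with the ferroxidase site, was at 3193 and 3304 CPM with vehicle and 3315 and 3317 CPM with 5D (log2 fold change 0.030, SE 0.030, 95% interval -0.036 to 0.095; adjusted p = 0.893, edgeR). The 5D values were the higher ones, but vehicle replicate 2 lay close to them. Ferritin is also set by translation, which RNA-seq does not measure.

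**Figure D2:**
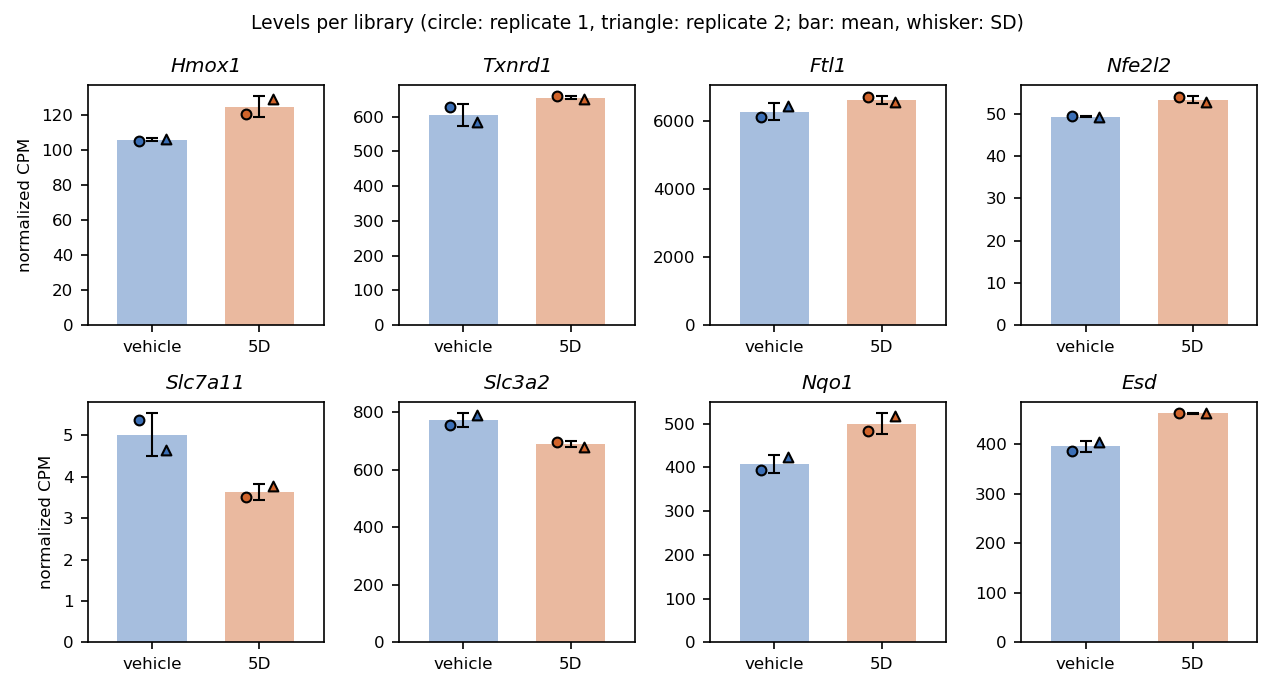
Normalized CPM (y axes, from 0) of 8 genes in the 2 vehicle and 2 5D libraries, with points for libraries, bars for means and whiskers for SD. Hmox1, Txnrd1, Ftl1, Nfe2l2, Nqo1 and Esd were higher and Slc7a11 and Slc3a2 lower in both 5D libraries, and none of the 8 passed at an adjusted p under 0.05 by edgeR.

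Summed by group, the NRF2 system was at 258 and 270 CPM with vehicle and 281 and 282 CPM with 5D, 6.67% higher on average. Its genes did not move alike. From vehicle to 5D the mean of Hmox1 went from 106 to 125 CPM, that of Nfe2l2 from 49.3 to 53.3 CPM, and that of Keap1 from 109 to 103 CPM. The thioredoxin system was at 1536 and 1539 CPM against 1592 and 1623 CPM (4.56% higher), and iron storage at 9292 and 9743 CPM against 10008 and 9851 CPM (4.33% higher). In these 3 groups both 5D libraries lay above both vehicle libraries, and in the other 5 groups the libraries overlapped. These sums were not tested, and each is weighted towards its more abundant genes. Together the 34 genes took 1.63% and 1.68% of all counts with vehicle and 1.73% and 1.70% with 5D.

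The levels themselves spanned more than 4 orders of magnitude per length. Per kb of merged exon, Ftl1 stood at 4807 CPM, Fth1 at 946, Txn1 at 624 and Prdx1 at 341, and at the lower end Gss stood at 5.57, Mgst2 at 0.635 and Slc7a11 at 0.311. The order depends on the length used. With the mean transcript length of each gene in place of its merged exons, Prdx1 (1104 CPM per kb) passed Txn1 (624 CPM per kb) and Gpx4 passed Gpx1, while Ftl1 and Fth1 stayed first and second and Mgst2 and Slc7a11 last. In CPM without regard to length, Ftl1 and Fth1 lay at the 99.98 and 99.95 percentiles of all tested genes, Prdx1 at 99.6 and Txn1 at 99.0. Neighbours such as G6pdx and Taldo1 (149 and 148 CPM per kb), or Prdx6, Glrx and Tkt (48.5 CPM per kb each), cannot be ordered. Apart from Hmox1 and Hmox2, ratios of paired genes kept their direction with both lengths, while their size moved by unlike amounts. That of Nfe2l2 to Keap1 was 0.59 and 0.53 with vehicle and 0.63 and 0.65 with 5D per kb of merged exon. Per kb of mean transcript it moved little, to 0.61 and 0.54 with vehicle and 0.64 and 0.67 with 5D. With vehicle, the ratio of Hmox1 to Hmox2 was 1.37 and 1.41 per kb of merged exon. Per kb of mean transcript it was 0.955 and 0.984 in the same libraries, so its direction turned. With 5D, Hmox1 exceeded Hmox2 in both libraries with either length. Per kb of merged exon Gclc exceeded Gclm by 3.79 to 4.55 times, and per kb of mean transcript by 2.09 to 2.499 times. The ratio of Sod1 to Sod2 was 3.65 to 3.80 on the first scale and 1.09 to 1.13 on the other. That of Prdx1 to Prdx3 was 2.87 to 3.24 and 9.29 to 10.5, and that of Fth1 to Ftl1 was 0.191 to 0.202 and 0.417 to 0.441.

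**Figure D3:**
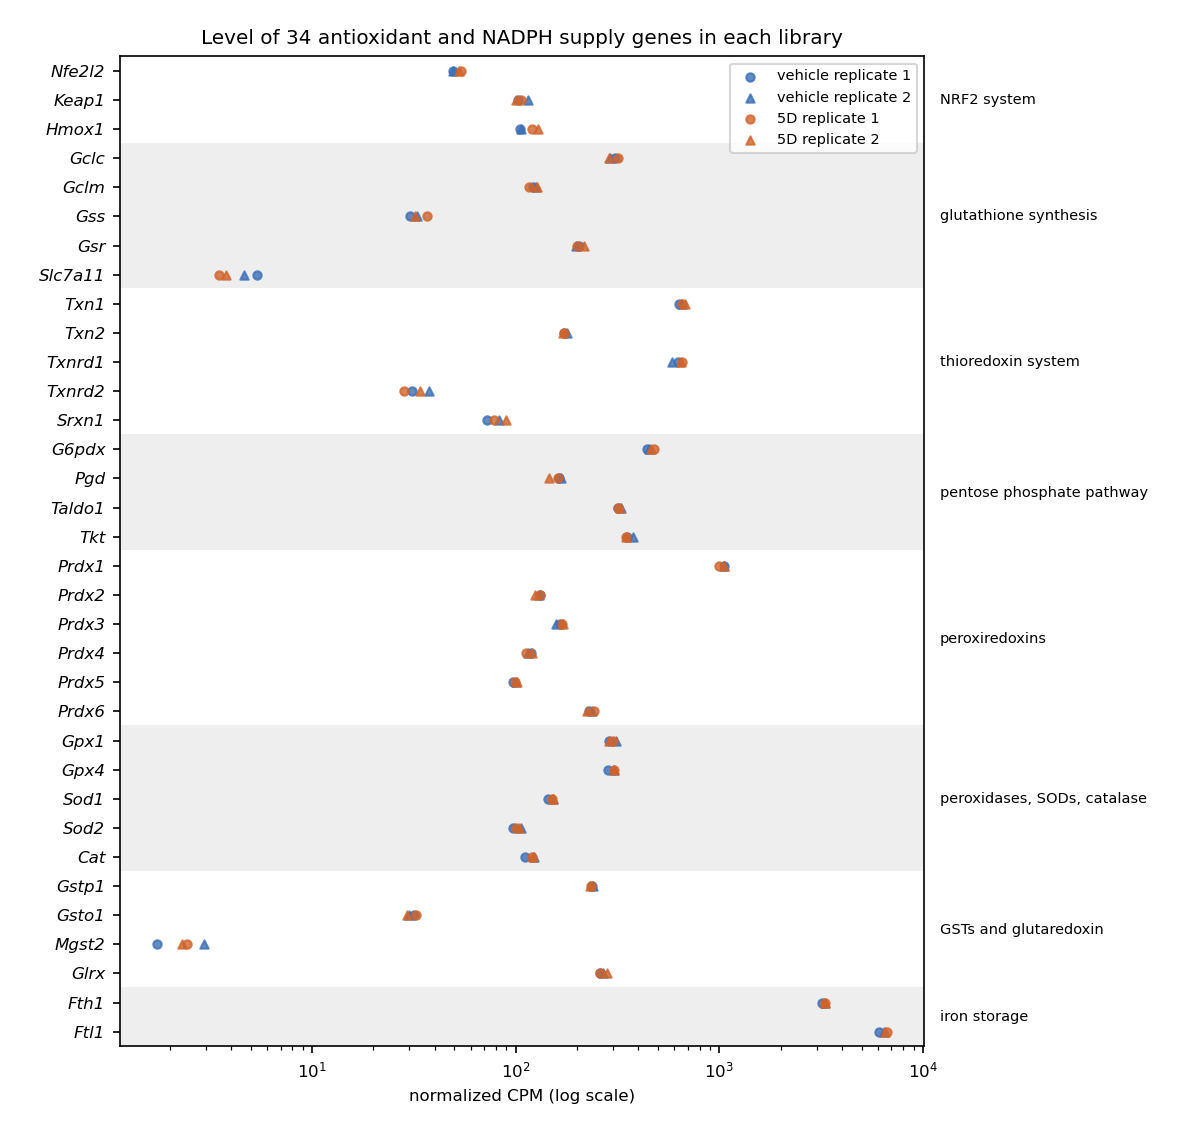
Normalized CPM (x axis, log scale) of each of the 34 genes (y axis, by functional group) in each of the 4 libraries. The libraries of both groups nearly coincide for most genes, mean levels run from 2.35 CPM for Mgst2 to 6441 CPM for Ftl1, and the spread between libraries is widest for Mgst2, Slc7a11 and Txnrd2.

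Set against the replicates, the median absolute log2 difference over the 34 genes was 0.067 between the vehicle libraries and 0.070 between the 5D libraries, and 0.036 between the groups. These are not like measures, since the last compares averages of 2 libraries, which vary less than single libraries. A smaller value between groups would arise with no effect too, and no value over all genes is given beside these medians. The difference between groups exceeded both replicate differences in 6 genes (17.6%, where 23.9% of all tested genes did), which were Nfe2l2, Hmox1, Slc7a11, Txnrd1, G6pdx and Gstp1, so the share was below that of all genes. Over the genes as a whole, vehicle replicate 1 was the lowest library. There 9 of the 34 genes lay above their mean over the libraries and the median log2 deviation was -0.040, while the other 3 libraries had 20 to 24 genes above it and medians of 0.0077 to 0.023. Without vehicle replicate 1 the median log2 fold change of the 34 genes turned from 0.019 to -0.012.

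**Figure D4:**
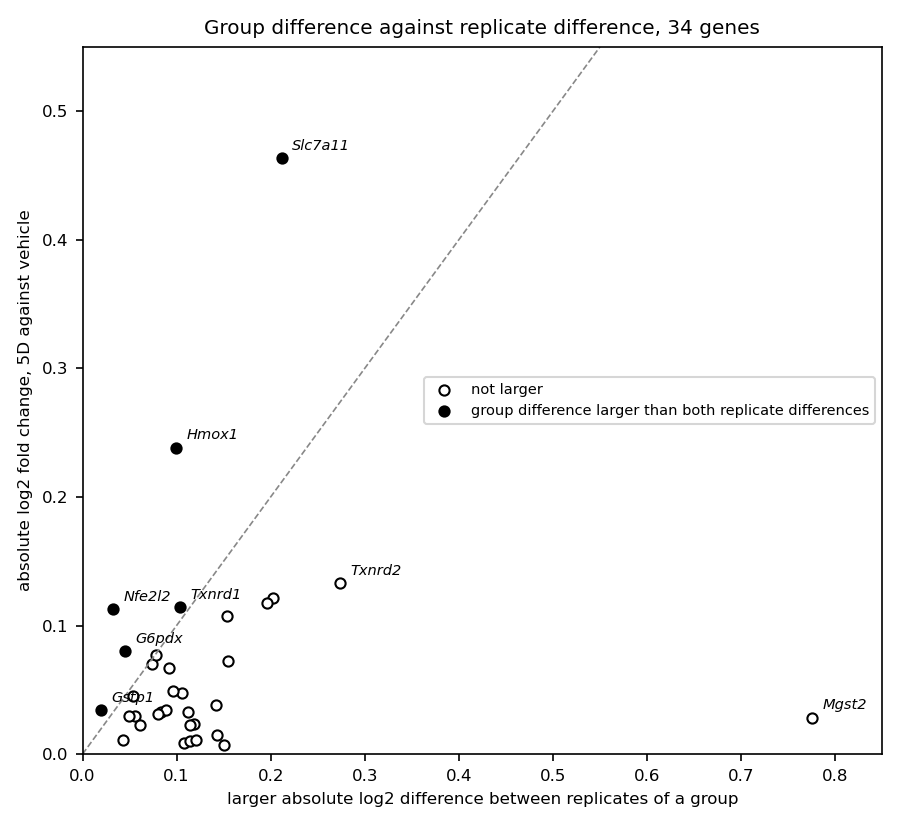
Absolute log2 fold change of 5D against vehicle (y axis) against the larger of the 2 absolute log2 differences between replicates of a group (x axis) for the 34 genes, with the dashed line where they are equal. The 6 filled genes lie above the line, Hmox1 and Slc7a11 farthest, and Mgst2 differs most between replicates (0.78).

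Of 101 other genes of the same pathways, 95 were tested (Ftmt, Me3, Sod3, Slc40a1, Nox4 and Mgst1 did not pass the filter) and none passed at an adjusted p under 0.05 by edgeR, while DESeq2 called 3 (Nqo1, Esd and Slc3a2) and limma-voom 2 (Nqo1 and Esd). At an unadjusted p under 0.05, 6 were higher (6.32%) and 4 lower (4.21%), against 3.5% and 3.84% of all tested genes. The smallest p was that of Nqo1, a quinone reductase that uses NADPH or NADH and a standard NRF2 target. It was at 393 and 423 CPM with vehicle and 483 and 517 CPM with 5D, with no overlap (log2 fold change 0.29, SE 0.052, 95% interval 0.18 to 0.41; adjusted p = 0.088, edgeR). DESeq2, limma-voom, the fit with no filter and edgeR's own filter gave it adjusted p-values from 5.11e-05 to 0.0485, while without mitochondrially encoded genes it was 0.0923. It was also called without vehicle replicate 1 (adjusted p = 0.0199), vehicle replicate 2 (3.51e-05) or 5D replicate 1 (0.0387), and not without 5D replicate 2 (0.400), so whether Nqo1 is called depends on the setting. Esd, esterase D, which releases glutathione from S-formylglutathione, was at 387 and 404 CPM with vehicle and 462 CPM in each 5D library (0.23, SE 0.044; adjusted p = 0.150 by edgeR, from 0.00101 by DESeq2 to 0.147 over the alternatives, and 0.0159 by edgeR without vehicle replicate 2). Me1, malic enzyme, another NRF2 target that makes NADPH, was at 51.7 and 53.5 CPM with vehicle and 49.7 and 50.2 CPM with 5D, slightly lower (-0.074, adjusted p = 0.907, edgeR). The 15 genes tested as other NRF2 target enzymes, Nqo1, Esd, Me1 and Hmox2 included, had a median log2 fold change of -0.0069. Of these, 7 lay above and 8 below 0. Whether each is an NRF2 target in these cells was not tested, and some had few counts, such as Cbr3 with 4 to 7. The 9 NRF2 partners and repressors, such as Mafk, Mafg and Bach1, had 0 past the unadjusted threshold.

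Of the 23 other glutathione enzymes tested, Chac1, which degrades glutathione, was higher with 5D at 19.5 and 21.9 CPM against 15.9 and 15.0 CPM (log2 fold change 0.42, adjusted p = 0.532, edgeR). Gstm1, a mu-class transferase, was lower at 89.5 and 77.9 CPM against 99.3 and 93.4 CPM (-0.20, adjusted p = 0.612, edgeR). Neither gene overlapped between the groups. Of the thiol repair genes, Aifm2, which restores the lipid antioxidant form of coenzyme Q, had a log2 fold change of 0.38 and the selenoprotein gene Selenof of -0.13, both past the unadjusted threshold alone. Txnip, which binds and inhibits thioredoxin, overlapped at 91.7 and 94.7 CPM with vehicle and 83.5 and 92.8 CPM with 5D (-0.080).

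Of the other NADPH supply genes, Idh1, the cytosolic NADP-dependent isocitrate dehydrogenase, was lower at 9.51 and 9.86 CPM with 5D against 13.4 and 13.6 CPM with vehicle. The replicates of each group were close and the groups did not overlap (log2 fold change -0.48, SE 0.15, 95% interval -0.82 to -0.14), yet the adjusted p was 0.532 by edgeR. Nadk, the kinase that makes NADP from NAD, was higher at 382 and 400 CPM against 362 and 364 CPM (0.11, adjusted p = 0.641, edgeR). Of the subunits of the phagocyte NADPH oxidase, a source of superoxide, the catalytic Cybb was at no more than 0.35 CPM and Ncf1 at no more than 0.56 CPM in any library, while Cyba, Ncf4 and Rac2 were at 325 to 349, 320 to 375 and 877 to 909 CPM. Ncf4 was higher in both 5D libraries (0.15, adjusted p = 0.550, edgeR). Of 9 other genes of iron handling, 8 had log2 fold changes below 0 with a median of -0.10 and 0 past the unadjusted threshold. Tfrc, the transferrin receptor, was among them at 296 and 254 CPM with vehicle and 244 and 268 CPM with 5D, overlapping between the groups (-0.10, 95% interval -0.26 to 0.057).

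**Figure D5:**
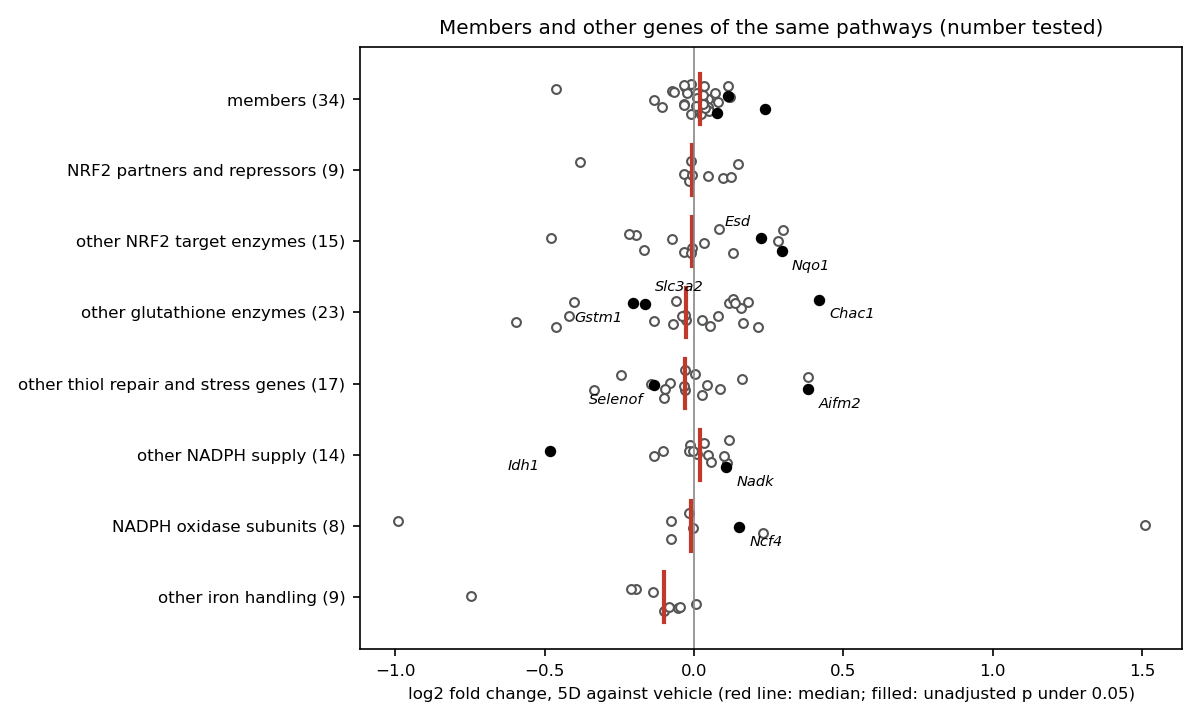
Log2 fold change of 5D against vehicle (x axis) for the 34 genes and for 7 lists of other genes of the same pathways (y axis, with the number tested), 1 point per gene, a red line at each median and filled points for an unadjusted p under 0.05. The medians lie between -0.10 (iron handling) and 0.021 (other NADPH supply), and the points far from 0 in the NADPH oxidase list are Cybb and Ncf1, which had almost no counts.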

How the data were processed

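The authors made cDNA libraries with a low-input kit, sequenced them on an Illumina NextSeq instrument, aligned reads with STAR 2.6.1 to mm10 and quantified them on the GENCODE M21 annotation in Partek software. Whether counting used strand is not given in the sources used here. The deposited values are estimated counts per gene before normalization (54.9% to 58.4% of values were whole within 0.001), and they were rounded here, although whole counts had been planned for. Gene names and positions matched a GENCODE M21 copy for 21910 genes, including all 34.

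Upper-quartile scaling was used. As in the authors' methods, genes whose normalized counts averaged under 1 or summed to under 10 were dropped (4904 genes). 5D was compared with vehicle by edgeR's quasi-likelihood test (edgeR 4.0.16, limma 3.58.1, R 4.3.3), two-sided, with no covariates and Benjamini-Hochberg adjustment over all 17650 tested genes. The authors' Gene Set Analysis was not run. SE was derived from the F statistic, and intervals are at 95%. The biological coefficient of variation was 8.51%. The scripts were tested on simulated counts. Levels between genes are CPM per kb of merged exon. Near-identical stretches are at least 150 bases at 95% identity (BLAST 2.17.0).

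The genes and lists were chosen with earlier results of these data known, so no p was adjusted over a list and no set test was run. All 34 genes are named. Every library and the full statistics are given for genes with an unadjusted p under 0.05, or the 8 smallest p if fewer than 8 pass, for the highest per kb of each group, and for Nfe2l2, Keap1, Hmox1 and Txnrd1. Of the other genes, those with an unadjusted p under 0.05 and Nqo1, Me1, Txnip and Tfrc are named, and a few were added after their values were seen. Alternatives were TMM, DESeq2's size factors, DESeq2 1.42.0, limma-voom, no filter, filterByExpr, a replicate block, leaving out mitochondrially encoded genes, and leaving out each library. Replicates of a group differed beyond counting error (chi-square per gene 6.02 and 6.73).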

Additional observations from a re-analysis of the deposited data

How the results depend on the processing

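The count of the 34 genes called at an adjusted p under 0.05 was 0 in all 12 other settings, with a smallest adjusted p of 0.187 with all libraries and 0.174 without 1 library. Ftl1, Hmox1 and Txnrd1 were the 3 past the unadjusted threshold in every setting that used all libraries. With 1 library left out, the lone library of its group was assumed to vary like the others. Which of the 34 genes passed the unadjusted threshold changed with each library left out. The share of all tested genes past that threshold is not given here for those fits, so their counts have no background and are not read. Genes of the 34 whose groups did not overlap numbered 7 to 17 higher and 4 to 14 lower without 1 library, where 1 library has only to lie outside 2 (17 and 4 without vehicle replicate 2, 7 and 14 without vehicle replicate 1, 15 and 11 without 5D replicate 1, 12 and 9 without 5D replicate 2). These are 17 of 34 (50%) and 11.8%, 20.6% and 41.2%, 44.1% and 32.4%, and 35.3% and 26.5% of the 34, where all tested genes gave 33.8% and 34.6%, 34.7% and 36.8%, 32.9% and 34.7%, and 33.1% and 34.1% in the same order. The median log2 fold change ran from -0.012 (without vehicle replicate 1) to 0.033, and the median of all genes shifted by at most 0.0091.

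Over all tested genes, 5 were higher and 12 lower. DESeq2 called 17 and 43, limma-voom 9 and 23, and the fit with no filter 11 and 35. Without 1 library the counts ran from 3 to 73 and from 12 to 107, with 73 and 107 without vehicle replicate 1, 32 and 47 without vehicle replicate 2, 6 and 14 without 5D replicate 1, and 3 and 12 without 5D replicate 2. The causes were not tested. With a replicate block the counts were 9 higher and 32 lower. No pairing by replicate number showed in the correlation of deviations over 14133 genes (-0.0148 between vehicle 1 and 5D 1). That single value over all genes cannot exclude a shared replicate effect in some of them, so whether the numbers pair the libraries is not known. The block changed no call among the 34 genes, while it called Nqo1 (adjusted p = 0.00548, edgeR).

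Of the 34 genes, 15 kept their sign in every setting, but without 1 library only 4 of them (Nfe2l2, Hmox1, Slc7a11 and Gstp1) stayed within 1.5 times of the value given. The other 11 ran from 0.013 to 0.22 (Gss), 0.016 to 0.068 (Txn1), -0.061 to -0.0038 (Txn2), 0.061 to 0.16 (Txnrd1), 0.018 to 0.21 (Srxn1), 0.053 to 0.10 (G6pdx), -0.19 to -0.035 (Pgd), -0.12 to -0.022 (Tkt), 0.032 to 0.10 (Prdx3), 0.0016 to 0.052 (Fth1) and 0.035 to 0.11 (Ftl1). Prdx4 turned to 0.00043 with TMM. Without 1 library 19 changed sign. Their log2 fold changes then ran from -0.15 to 0.0035 (Keap1), -0.062 to 0.083 (Gclc), -0.086 to 0.030 (Gclm), -0.0089 to 0.095 (Gsr), -0.27 to 0.0056 (Txnrd2), -0.036 to 0.0081 (Taldo1), -0.077 to 0.0039 (Prdx1), -0.084 to 0.0076 (Prdx2), -0.066 to 0.040 (Prdx4), -0.012 to 0.050 (Prdx5), -0.052 to 0.065 (Prdx6), -0.082 to 0.033 (Gpx1), -0.0024 to 0.095 (Gpx4), -0.012 to 0.069 (Sod1), -0.052 to 0.069 (Sod2), -0.036 to 0.11 (Cat), -0.074 to 0.079 (Gsto1), -0.32 to 0.46 (Mgst2) and -0.026 to 0.084 (Glrx), and for Tfrc from -0.21 to 0.011. With the mean transcript length, levels per kb were 98.4 for Hmox1, 191 for Gclc, 364 for G6pdx, 347 for Gpx1, 371 for Gstp1 and 8488 for Ftl1, beside 1104 for Prdx1. With 2 libraries per group, differences under the intervals given could not be detected.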
